A study of Mus musculus with 8 samples.

Results

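Heat shock proteins and their DNAJ co-chaperones were followed in kidney RNA from diabetic mice given recombinant FGF4 (rFGF4) or kept as the db/db model group. The genes were picked out by their symbols and not by their values, although earlier results of these data were known when the family was chosen. They are the numbered Hspa, Hspb, Dnaja, Dnajb and Dnajc genes together with Hsp90aa1, Hsp90ab1, Hsp90b1, Hspd1, Hspe1, Hsph1 and the heat shock factors Hsf1, Hsf2, Hsf4 and Hsf5, which gave 74 of the 55401 genes in the table. Bulk poly(A) RNA of kidney was sequenced in 8 male mice, 1 library per mouse, with 4 mice (numbered 1, 2, 3 and 5) in the rFGF4 group and 4 mice (numbered 2, 3, 4 and 5) in the db/db model group. Both groups were diabetic, so the comparison asks what rFGF4 changed within disease, and no healthy kidney was part of it.

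The labels give the tissue as kidney without the region, and their extraction protocol speaks of an adipose type, although brown fat markers summed to at most 0.227 FPKM and the kidney markers below were present in every mouse. The labels also call the animals db/db, a strain that lacks a working leptin receptor and becomes obese and diabetic, whereas the study's text describes the sequenced kidneys as from mice made diabetic with streptozotocin, and the files do not settle which applies. The rFGF4 is a human FGF4 protein engineered to lack mitogenic activity. In the study's treatment experiments db/db mice were injected with it from 12 weeks of age, into the peritoneum on alternate days at 1 mg per kg of body weight, and the course lasted 8 weeks with PBS as the vehicle. That regimen is stated for those experiments and not for the sequenced animals themselves. Levels are given as FPKM, the fragments of a transcript scaled to its length and to all mapped fragments of the library, so genes can be compared per length. Each log2 fold change is the rFGF4 minus the db/db model mean of log2(FPKM + 1), given with its standard error (SE), the unadjusted p of limma and the two-sided exact permutation p. Within each list of values below, the rFGF4 mice are in the order 1, 2, 3 and 5 and the db/db model mice in the order 2, 3, 4 and 5. The table holds no read counts, so the depth of the libraries is unknown, and p-values measure only the spread between these mice.

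Chaperones bind unfolded proteins and help them to fold, to cross membranes or to be degraded. HSP70 proteins do so in cycles of ATP hydrolysis that are started by J-domain proteins of the DNAJA, DNAJB and DNAJC families and reset by HSP110 proteins, which exchange the nucleotide. HSP90 proteins take over late folding steps of kinases and steroid receptors, the HSPD1 and HSPE1 chaperonin folds proteins inside mitochondria, and small HSPB proteins hold unfolded proteins without ATP. When unfolded proteins build up in the cytosol, HSF1 is released from chaperones and binds heat shock elements, repeats of GAA units in alternating orientation, in front of chaperone genes. The endoplasmic reticulum (ER) has its own set, led by the HSP70 protein BiP (Hspa5), whose promoter carries ER stress response elements read by ATF6 and XBP1. Kidney tubule cells are rich in mitochondria and are known to raise HSP70 and HSP25 (Hspb1) after ischaemia.

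Most of the family was expressed in kidney. Of the 74 members, 68 reached the level for testing, an FPKM of at least 0.5 in at least 4 of the 8 libraries. The 6 that did not were Dnajb13 (0.0751 to 0.535 FPKM), Hspb9 (0.339 to 1.02 FPKM), Dnajb7, Hsf5 and Hspb3, whose highest values were 0.265, 0.0780 and 0.0561 FPKM, and Dnajb8, which was listed at 0 in all 8 mice. As the mean of 8 mice, Hspa8, the constitutive cytosolic HSP70, was at 336 FPKM and Hsp90ab1, the constitutive cytosolic HSP90, at 293 FPKM, so the forms that cells make without stress led the family. The mitochondrial HSP70 Hspa9 was at 144 FPKM, the chaperonin Hspd1 at 120 FPKM and its lid Hspe1 at 83.9 FPKM, and the ER chaperones Hsp90b1 and Hspa5 were at 90.7 and 81.3 FPKM. Stress-inducible Hspa1b and Hspa1a, which encode nearly the same protein, were at 18.8 and 10.1 FPKM. Among J-domain proteins Dnaja2 was highest at 42.1 FPKM, and the 26 DNAJC members ran from 0.858 FPKM for Dnajc27 to 20.4 FPKM for Dnajc3. In all, 24 tested members had a mean under 5 FPKM.

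**Figure D1:**
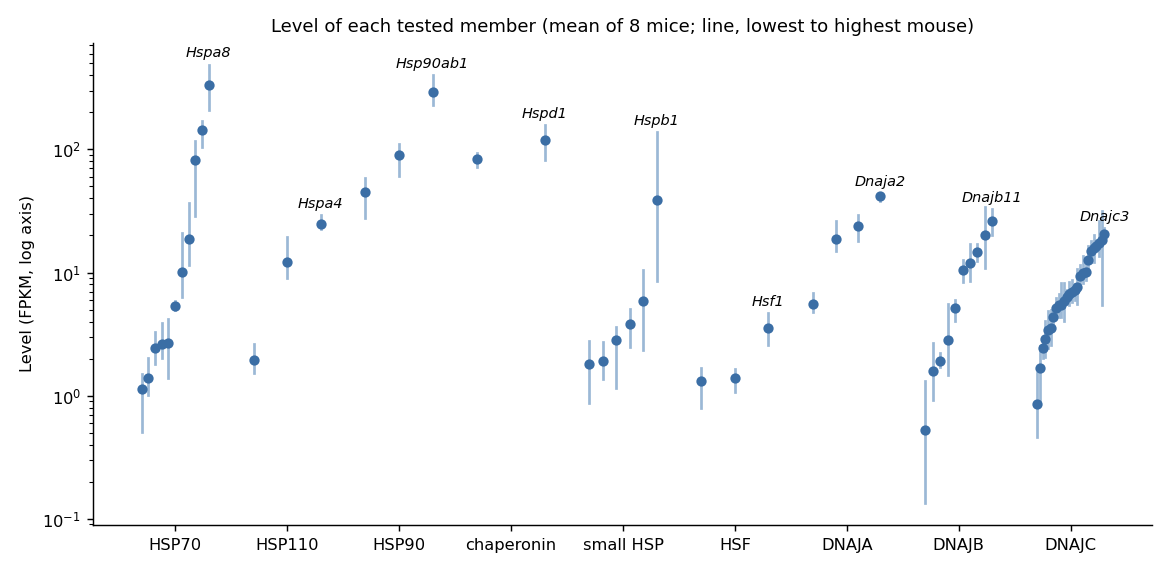
Level of the 68 tested members by family, as FPKM on a log axis. Points are the mean of 8 mice, lines run from the lowest to the highest mouse and the highest member of each family is named; Hspa8 (336 FPKM) and Hsp90ab1 (293 FPKM) lead, and Hspb1 spans the range from 8.54 to 138 FPKM.

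Some transcripts share sequence with other genes, which can move reads between them. Of all 50-base stretches of Hspa1a transcripts 66.3% occur in another annotated gene, 58.8% in Hspa1b, so the split between both genes is uncertain. The share was 71.4% for Hspa1l, 50.1% for Hspb1, 47.5% for Hsp90aa1, 42.1% for Hspd1 and 39.4% for Hspa8. For Hspb1 and Hspd1 most of it lay in genes named as pseudogenes, Hsp25-ps1 (48.8%) and Hspd1-ps3 (38.0%), and the share of 42.7% for Dnaja4 lay in Wdr61. It was 5.50% for Dnajb9. In all, 14 of the 74 members shared over 20%.

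The libraries differed in ways that touch the results. Levels of the tested genes were higher in rFGF4 mouse 1 as a whole, with a median ratio of 1.30 to the typical library against 0.907 to 1.11 in the other mice, and over all genes tested the log2 fold change had a median of 0.086 in favour of rFGF4. Scaling every library to the same median ratio brought it to -0.011, so a member whose direction turns after this scaling is given with its scaled value, and a list with its scaled count. The FPKM of single mice are printed as deposited, without this scaling, which lowers rFGF4 mouse 1 most. The 4 proximal tubule markers summed to 179 FPKM in rFGF4 mouse 1 and to 578 and 594 FPKM in db/db model mice 3 and 5, against 645 to 1025 FPKM in the other mice. The 3 macrophage markers summed to 83.2 and 84.2 FPKM in rFGF4 mouse 1 and db/db model mouse 5, against 8.68 to 31.8 FPKM elsewhere, and the 6 lymphoid markers, which include the immunoglobulin gene Igkc, reached 22434 FPKM in db/db model mouse 5. In bulk tissue, fewer cells of a type and less RNA per cell cannot be told apart. Testis markers were listed at 0 in every mouse and skeletal muscle markers summed to 0.236 to 2.17 FPKM.

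Chaperone mRNA took a larger share of the total in 3 of the 4 rFGF4 mice than in any model mouse. The 74 members made up 0.628%, 0.630%, 0.617% and 0.465% of the non-mitochondrial FPKM in the rFGF4 mice and 0.447%, 0.466%, 0.442% and 0.458% in the db/db model mice. The value of rFGF4 mouse 5 lay within the narrow range of the model mice. Hspa8 and Hsp90ab1 gave 56.3% of the gap between the group means of the summed FPKM. The other members together made up 0.394%, 0.389%, 0.364% and 0.309% in the rFGF4 mice and 0.317%, 0.287%, 0.296% and 0.298% in the model mice, again with rFGF4 mice 1, 2 and 3 above every model mouse. The order depends on what the sum is set against. With libraries scaled to the same median ratio, the members summed to 1530, 1928, 2094 and 1677 FPKM in the rFGF4 mice and 1674, 1742, 1659 and 1505 FPKM in the model mice, so only rFGF4 mice 2 and 3 stayed above every model mouse. Without Hspa8 and Hsp90ab1 the scaled sum of rFGF4 mouse 1 (960 FPKM) was below every model mouse (979 to 1188 FPKM). Of the 68 tested members 53 (77.9%) were higher in the rFGF4 group, against 67.1% of all 15150 tested genes, and the medians were 0.12 and 0.086 on the log2 scale. After scaling the split was 34 of 68 (50%), against 47.6% of all genes, the members' median was -0.00075, and 19 members had turned from higher to lower.

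The study's limits for a changed gene were p below 0.05 without adjustment and at least a 1.5-fold change. By limma, 1 of 68 members (1.47%) passed those limits, Dnajb9, against 1.52% of all tested genes in either direction, 1.09% higher and 0.436% lower. At an unadjusted p under 0.05 without the fold requirement 3 members were higher, Dnajb9, Hsph1 and Hsf1 (4.41%, background 3.56%), and 1 was lower, Dnajc15 (1.47%, background 1.06%). In the unscaled values the 4 rFGF4 mice lay above all 4 model mice in 3 members, Dnajb9, Dnajb14 and Dnajc18 (background 2.66%). They lay below them in Dnajc15 (background 0.667%). These shares are near the background. No member and no other gene reached an adjusted p under 0.05 by limma (smallest 0.918, with 700 genes at an unadjusted p under 0.05). The interval of the fold change included 0 in 64 of 68 members, and in 41 it lay within a 1.5-fold change either way on the log2(FPKM + 1) scale, which understates the FPKM change of low genes. The count past both limits was 2 without rFGF4 mouse 1, 3 or 5 or without db/db model mouse 5. The count of higher members was 5 without rFGF4 mouse 5 and 1 without rFGF4 mouse 2, db/db model mouse 2 or db/db model mouse 4, and that of lower members was 0 without any 1 of rFGF4 mice 1 and 2 and db/db model mice 2, 3 and 4. Without rFGF4 mouse 3 or db/db model mouse 5 the lower member was Dnajc19, and without rFGF4 mouse 5 it was Hspb2.

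**Figure D2:**
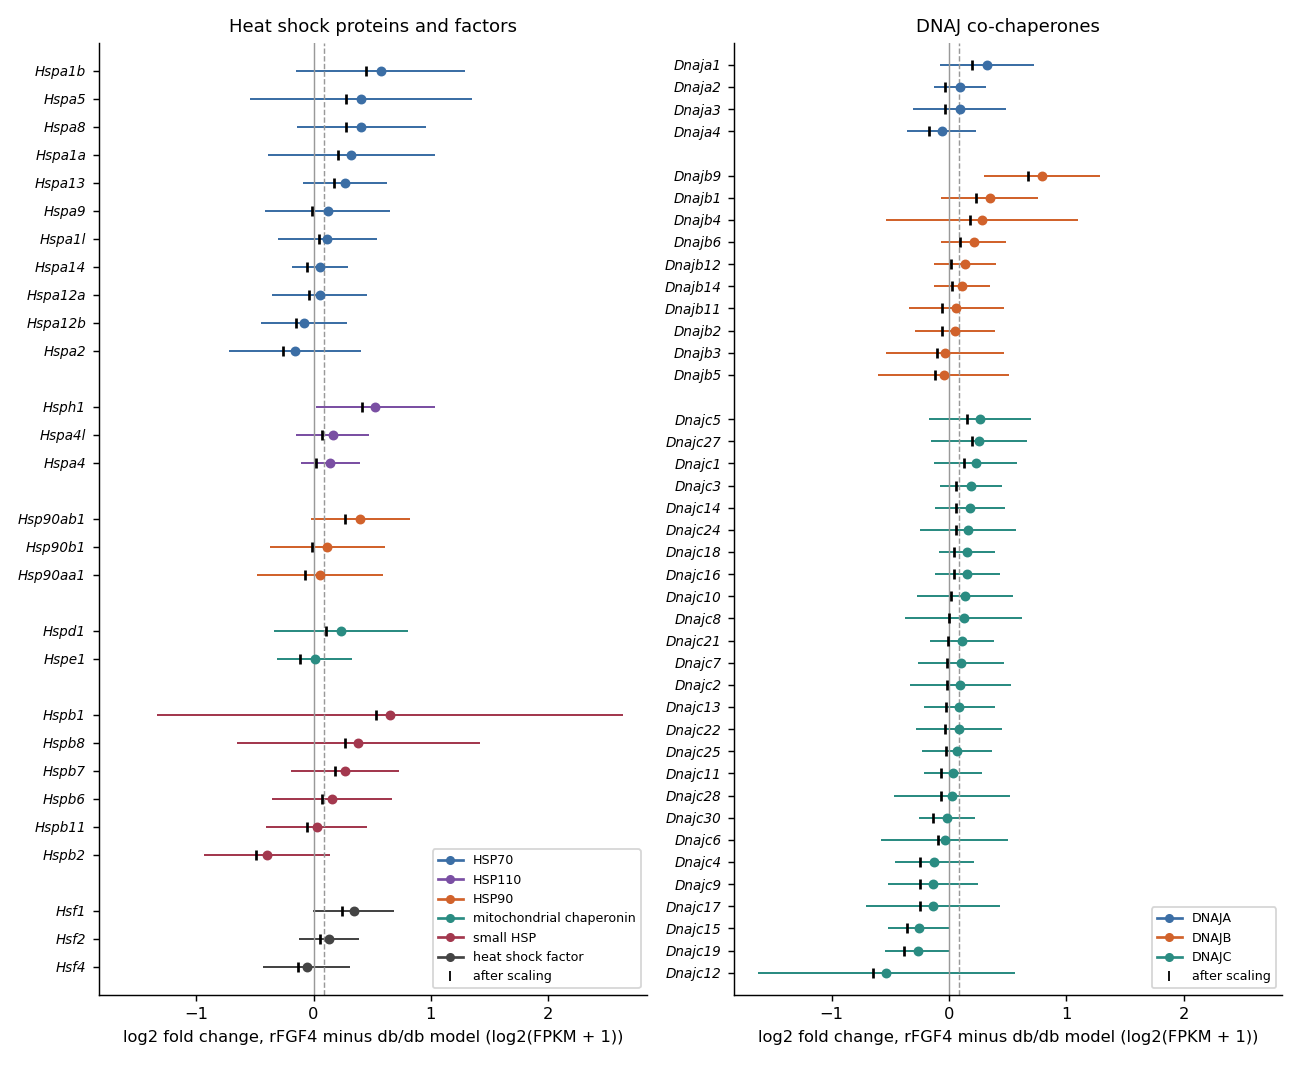
Log2 fold change of each tested member on the log2(FPKM + 1) scale, rFGF4 minus db/db model (n = 4 mice per group), with 95% intervals, by family. Black ticks are the values after scaling and the dashed line is the median of all tested genes (0.086); Dnajb9 stands farthest right of the J-domain proteins at 0.80, and 64 of 68 intervals cross 0.

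The clearest difference was in Dnajb9, which encodes ERdj4, a J-domain partner of BiP in the ER lumen that is induced by XBP1 and helps to clear misfolded proteins. Dnajb9 was at 27.5, 34.3, 23.0 and 18.4 FPKM in the rFGF4 mice and 14.1, 10.9, 14.3 and 17.8 FPKM in the db/db model mice. The lowest rFGF4 mouse was just above the highest model mouse, and the other rFGF4 mice stood well clear. The log2 fold change was 0.80 ± 0.21 (SE, unadjusted p = 0.00530, exact p = 0.0286). The 95% interval ran from 0.31 to 1.28 and the adjusted p was 0.918, and the exact p is the smallest that 4 mice a group allow. It kept an unadjusted p under 0.05 by limma with each of the 8 mice left out in turn (log2 fold change 0.65 to 0.94) and after scaling (0.67). With the mouse number as a replicate block, described below, it narrowly missed that limit (0.76).

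Dnajb9 belongs to a group of 8 members that work in the ER lumen. All 8 were higher in the rFGF4 group, as were 67.1% of all tested genes. Their median was 0.21 on the log2 scale, and 1 of them was higher at an unadjusted p under 0.05 (background 3.56%). After scaling 6 of 8 were higher (47.6% of all tested genes) and the median was 0.096. The BiP transcript Hspa5 was at 118, 104, 82.4 and 56.2 FPKM in the rFGF4 mice and 67.3, 97.4, 28.6 and 96.5 FPKM in the db/db model mice. It ranged widely in both groups, and db/db model mouse 4 had the lowest value by far. Its log2 fold change was 0.41 ± 0.41 (SE, unadjusted p = 0.348, exact p = 0.457), and without db/db model mouse 4 it was 0.018. Dnajb9 was lowest in db/db model mouse 3, where Hspa5 was the highest of the model group, so these ER genes did not order the mice alike.

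Hsp90b1 encodes GRP94, the HSP90 of the ER. Its levels were 111, 103, 93.2 and 69.8 FPKM in the rFGF4 mice and 86.7, 100.2, 60.7 and 101 FPKM in the db/db model mice, with overlapping groups. This gave a log2 fold change of 0.12 ± 0.21 (SE, unadjusted p = 0.591, exact p = 0.543), and the sign turned after scaling (-0.0100) and without db/db model mouse 4 (-0.044). Dnajb11 (ERdj3), which hands secreted proteins to BiP, was at 32.8, 28.5, 26.05 and 20.3 FPKM in the rFGF4 mice and 25, 30.03, 20.8 and 26.5 FPKM in the db/db model mice. The difference was 0.063 ± 0.17 (SE, unadjusted p = 0.722, exact p = 0.743) on the log2 scale, and it too turned after scaling (-0.062), without rFGF4 mouse 1 (-0.035) and without db/db model mouse 4 (-0.029). Dnajc3 encodes P58IPK, which binds unfolded proteins in the ER and restrains the kinase PERK. Its levels were 22.5, 23.0, 22.7 and 18.9 FPKM in the rFGF4 mice and 19.4, 17.7, 17.8 and 21.1 FPKM in the db/db model mice, and 3 of the 4 rFGF4 mice were above every model mouse. In log2 terms the change was 0.19 ± 0.11 (SE, unadjusted p = 0.135, exact p = 0.0857), and 0.063 after scaling. Among the rest, Hspa13 (a lumenal HSP70, 0.27), Dnajc1 (0.23) and Dnajc10 (a J-domain disulfide reductase, 0.13) had log2 fold changes that missed the unadjusted limit of 0.05.

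The ER promoters show which members carry the known element. In RefSeq promoter windows (GRCm38.p6, 250 bases before to 50 after a start site, present for 59 members) the ER stress response element, read as CCAAT, any 9 bases and CCACG, was searched on both strands. It was found in Hspa5, Hsp90b1 and Dnajc3 and in 0.119% of all 32851 windows. The related string of ATTGG, any base and CCACG was in Dnajb11 and in 0.0365% of all windows, and the ATF6 core TGACGTGG in Dnajc25 and in 0.676%. The Dnajb9 window held none of these letter strings. Hspa5 and Dnajb9 are printed 5′ to 3′ on the gene's strand, cropped to 30 bases after the start, because they are the lead chaperone with the element and the member with the largest difference. Capitals mark the element, which in Hspa5 lies at bases -65 to -47. Hspa5 is at chr2:34771840-34772119 on the plus strand and Dnajb9 at chr12:44210039-44210318 on the minus strand.
Hspa5: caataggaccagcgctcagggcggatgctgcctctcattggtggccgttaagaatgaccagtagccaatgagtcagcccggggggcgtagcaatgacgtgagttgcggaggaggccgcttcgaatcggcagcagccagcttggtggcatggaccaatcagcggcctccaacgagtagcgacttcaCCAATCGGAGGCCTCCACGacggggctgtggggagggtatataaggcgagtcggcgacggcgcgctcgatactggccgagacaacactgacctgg
Dnajb9: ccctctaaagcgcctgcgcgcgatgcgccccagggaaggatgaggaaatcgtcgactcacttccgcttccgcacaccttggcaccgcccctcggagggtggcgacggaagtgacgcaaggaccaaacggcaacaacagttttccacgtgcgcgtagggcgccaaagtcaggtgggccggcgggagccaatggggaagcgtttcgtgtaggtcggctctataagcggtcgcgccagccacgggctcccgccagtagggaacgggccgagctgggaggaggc
The groups overlapped in Hspa5, Hsp90b1, Dnajc3 and Dnajb11, the ER-lumen members with an element. Most genes overlapped, since 504 of all 15150 tested genes had groups without overlap in either direction.

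The heat shock factors sit above the cytosolic response. Hsf1, the main stress-activated factor, was at 4.69, 4.07, 4.51 and 3.04 FPKM in the rFGF4 mice and 2.77, 3.37, 2.60 and 3.19 FPKM in the db/db model mice, with 3 rFGF4 mice above every model mouse and rFGF4 mouse 5 among the model mice. On the log2 scale rFGF4 minus model was 0.34 ± 0.15 (SE, unadjusted p = 0.0469, exact p = 0.0857). It still passed the unadjusted limit of 0.05 by limma without rFGF4 mouse 5 (0.45) or db/db model mouse 3 (0.39), and it missed that limit without any 1 of the other 6 mice (0.28 to 0.37) and after scaling (0.24). HSF1 is regulated mostly as a protein, which these data do not measure. Hsf2, a partner factor active in development, was at 1.63, 1.51, 1.503 and 1.35 FPKM in the rFGF4 mice and 1.06, 1.33, 1.28 and 1.48 FPKM in the db/db model mice. The log2 fold change was 0.13 ± 0.11 (SE, unadjusted p = 0.263, exact p = 0.0571). Hsf4, best known from the lens, had a log2 fold change of -0.058 (unadjusted p = 0.721, exact p = 0.686).

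A list of 14 members that HSF1 is known to control was higher in the rFGF4 group in all 14, against 67.1% of all tested genes. Their median was 0.34 on the log2 scale, and 1 of the 14 was higher at an unadjusted p under 0.05 (background 3.56%). After scaling 12 of 14 were higher (47.6% of all tested genes), with a median of 0.22, and the exceptions were Hspe1 and Hsp90aa1. The tested members outside this and the ER list had a median of 0.089, beside 0.086 for all tested genes. Summed over the list, levels were 1170, 1251, 1230 and 858 FPKM in the rFGF4 mice and 772, 954, 839 and 929 FPKM in the db/db model mice. The first 3 rFGF4 mice were above every model mouse and rFGF4 mouse 5 was among them. After scaling the sums were 903, 1168, 1287 and 913 FPKM against 849, 1001, 925 and 839 FPKM, so rFGF4 mice 1 and 5 were both inside the model range and only mice 2 and 3 above it.

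Hsph1, which encodes HSP110, the nucleotide exchange factor that resets HSP70, was the listed member with the lowest p. It was at 9.77, 19.6, 18.5 and 11.5 FPKM in the rFGF4 mice and 8.95, 9.43, 10.3 and 9.68 FPKM in the db/db model mice. In rFGF4 mice 2 and 3 it was far above the model range, rFGF4 mouse 5 was slightly above the model range and rFGF4 mouse 1 was inside it. Its log2 fold change was 0.53 ± 0.22 (SE, unadjusted p = 0.0410, exact p = 0.0571). It passed the unadjusted limit by limma without rFGF4 mouse 1 (0.69) or 5 (0.62), and missed it without any 1 of rFGF4 mice 2 and 3 and the 4 model mice (0.38 to 0.56) and after scaling (0.41). The other HSP110 members had smaller differences. Hspa4 (APG2) was at 29.1, 26.8, 25.3 and 22.8 FPKM in the rFGF4 mice and 23.2, 22.5, 22.9 and 24.8 FPKM in the db/db model mice, and the log2 fold change was 0.14 ± 0.11 (SE, unadjusted p = 0.216, exact p = 0.114). Hspa4l had a log2 fold change of 0.16 (unadjusted p = 0.257, exact p = 0.200).

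Hspa8 encodes HSC70, the housekeeping HSP70. Its levels were 338, 427, 489 and 282 FPKM in the rFGF4 mice and 208, 362, 271 and 315 FPKM in the db/db model mice. The highest mice were rFGF4 2 and 3 and the groups overlapped. This gave a log2 fold change of 0.41 ± 0.24 (SE, unadjusted p = 0.123, exact p = 0.171), with means of 384 ± 92.0 and 289 ± 65.3 FPKM (SD, n = 4). Hspa1b, the inducible HSP70, was at 21.3, 36.7, 13.8 and 19.6 FPKM in the rFGF4 mice and 11.6, 13.3, 11.4 and 22.4 FPKM in the db/db model mice, with db/db model mouse 5 inside the rFGF4 range. The difference was 0.57 ± 0.31 (SE, unadjusted p = 0.103, exact p = 0.171) on the log2 scale, and it passed the unadjusted limit by limma only without rFGF4 mouse 3 (0.77) or db/db model mouse 5 (0.78) when 1 mouse was left out. Its near-identical neighbour Hspa1a was at 8.83, 20.8, 6.37 and 11.1 FPKM in the rFGF4 mice and 8.40, 9.48, 6.89 and 9.10 FPKM in the db/db model mice. Here rFGF4 mice 2 and 5 were above every model mouse and rFGF4 mouse 3 was below all of them. In log2 terms the change was 0.32 ± 0.31 (SE, unadjusted p = 0.322, exact p = 0.486), and without rFGF4 mouse 2 it was 0.025. Summed over both genes, which removes the doubtful split, levels were 30.1, 57.6, 20.2 and 30.7 FPKM against 20.04, 22.8, 18.3 and 31.5 FPKM, a log2 difference of 0.49 (exact permutation p = 0.257).

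The cytosolic HSP90 pair differed in size of change. Hsp90ab1, the constitutive form, was at 402, 363, 332 and 244 FPKM in the rFGF4 mice and 233, 277, 228 and 267 FPKM in the db/db model mice. Here rFGF4 mice 1, 2 and 3 were above every model mouse and rFGF4 mouse 5 was among them. On the log2 scale rFGF4 minus model was 0.40 ± 0.18 (SE, unadjusted p = 0.0580, exact p = 0.0857), and without rFGF4 mouse 5 it was 0.54 and passed the unadjusted limit by limma. Hsp90aa1, the stress-inducible form, was at 42.9, 59.1, 57.6 and 27.9 FPKM in the rFGF4 mice and 40.5, 46.8, 41.4 and 44.5 FPKM in the db/db model mice, with rFGF4 mouse 5 the lowest of all 8 mice. The log2 fold change was 0.056 ± 0.23 (SE, unadjusted p = 0.814, exact p = 0.943), and the sign turned after scaling (-0.071) and without rFGF4 mouse 2 (-0.073) or 3 (-0.061). The difference between both genes was not tested.

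The J-domain partners of cytosolic HSP70 described here were each highest in rFGF4 mouse 2. Dnaja1, a farnesylated HSP40, was at 16.5, 26.3, 24.1 and 17.5 FPKM in the rFGF4 mice and 15.6, 14.8, 18.8 and 16.5 FPKM in the db/db model mice, with rFGF4 mice 2 and 3 the highest. Its log2 fold change was 0.32 ± 0.17 (SE, unadjusted p = 0.0953, exact p = 0.171), and without rFGF4 mouse 1 it was 0.43 and passed that limit. Dnajb1, the classic heat-induced HSP40, was at 14.1, 16.9, 13.2 and 10.3 FPKM in the rFGF4 mice and 8.49, 10.1, 10.1 and 13.1 FPKM in the db/db model mice. Here rFGF4 mice 1, 2 and 3 were above every model mouse in the unscaled values. This gave a log2 fold change of 0.35 ± 0.18 (SE, unadjusted p = 0.0840, exact p = 0.0571), which passed that limit without rFGF4 mouse 5 (0.47) or db/db model mouse 5 (0.45). After scaling the log2 fold change of Dnajb1 was 0.23. Dnajb4 was at 4.54, 5.52, 1.59 and 1.67 FPKM in the rFGF4 mice and 2.86, 3.35, 1.46 and 1.73 FPKM in the db/db model mice, highest in rFGF4 mice 1 and 2. It had a log2 fold change of 0.29 (unadjusted p = 0.442, exact p = 0.486).

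**Figure D3:**
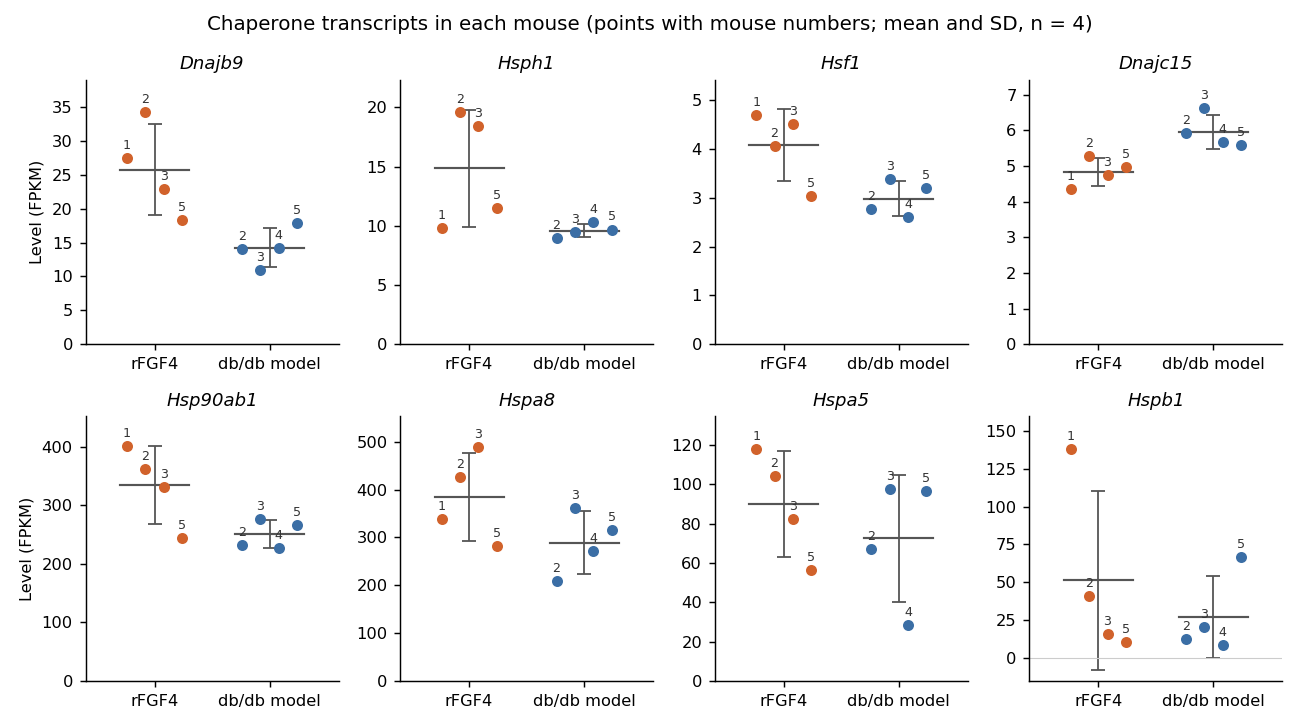
FPKM of 8 members in each mouse. Points carry the mouse number, horizontal lines are means and bars are SD (n = 4 per group); in Dnajb9 the groups do not overlap, in Hsf1 and Hsp90ab1 rFGF4 mouse 5 falls among the model mice, and in Hspb1 rFGF4 mouse 1 (138 FPKM) and db/db model mouse 5 (66.7 FPKM) stand apart.

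Heat shock elements were searched in a strict form only. The pattern of 3 units in alternating orientation was read as GAA, any 2 bases, TTC, any 2 bases and GAA on either strand. It was in 4 of the 59 members with a window, Hsph1, Dnajb6, Hspd1 and Hspe1. Counted by window, it was in 6 of 76 member windows and in 0.603% of all 32851 windows. Looser forms and bases farther from the start site were not searched, so other members may hold elements that this search misses. No window was present for 15 members, Hsp90aa1, Hsp90ab1, Hspa8, Hspa9, Hspa13, Hsf1, Hsf4, Hspb2, Dnajc2, Dnajc5, Dnajc11, Dnajc12, Dnajc18, Dnajc22 and Dnajc30. Hsph1 and Hspe1 are printed below from RefSeq (GRCm38.p6), as the member with the lowest p on the HSF1 list and the tested member with the log2 fold change nearest 0, both with the element in capitals. In Hsph1 it lies just past the start site, at bases 15 to 27, and in Hspe1 a pair of overlapping matches covers bases -89 to -72 of a promoter that Hspe1 shares head to head with Hspd1. Hsph1 is at chr5:149636286-149636565 on the minus strand and Hspe1 at chr1:55087898-55088177 on the plus strand.
Hsph1: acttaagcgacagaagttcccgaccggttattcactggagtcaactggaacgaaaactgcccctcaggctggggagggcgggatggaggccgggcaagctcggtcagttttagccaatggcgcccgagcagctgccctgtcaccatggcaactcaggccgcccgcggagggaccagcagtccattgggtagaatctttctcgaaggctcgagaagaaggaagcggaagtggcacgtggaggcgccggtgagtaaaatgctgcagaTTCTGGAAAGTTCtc
Hspe1: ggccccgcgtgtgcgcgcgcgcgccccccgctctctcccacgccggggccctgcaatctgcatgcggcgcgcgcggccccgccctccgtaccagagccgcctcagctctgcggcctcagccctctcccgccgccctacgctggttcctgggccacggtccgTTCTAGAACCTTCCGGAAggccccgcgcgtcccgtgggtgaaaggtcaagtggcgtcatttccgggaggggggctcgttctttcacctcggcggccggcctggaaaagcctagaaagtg
Of these 4 members, Dnajb6, an HSP40 that keeps aggregation-prone proteins soluble, had a log2 fold change of 0.21 (unadjusted p = 0.108, exact p = 0.0857), and Hspd1 (0.23) and Hspe1 (0.010) were also below Hsph1.

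Hspb1 and Hspb8 varied widely between mice of the same group. Hspb1 (HSP25), an actin-protecting chaperone, was at 138, 40.8, 16.0 and 10.5 FPKM in the rFGF4 mice and 12.4, 20.4, 8.54 and 66.7 FPKM in the db/db model mice, a 16.1-fold range over the 8 mice. The highest values came from rFGF4 mouse 1 and db/db model mouse 5, 1 from each group. The difference was 0.65 ± 0.86 (SE, unadjusted p = 0.469, exact p = 0.571) on the log2 scale, and without rFGF4 mouse 1 it was -0.042. The macrophage marker sums were highest in the same mice, at 83.2, 31.8, 13.04 and 11.5 FPKM in the rFGF4 mice and 8.68, 23.2, 9.27 and 84.2 FPKM in the model mice, and their part in the Hspb1 level was not tested. Hspb8, the small heat shock partner of BAG3 in selective autophagy, was at 10.5, 8.90, 5.66 and 2.43 FPKM in the rFGF4 mice and 2.33, 6.57, 3.13 and 7.67 FPKM in the db/db model mice. In log2 terms the change was 0.38 ± 0.45 (SE, unadjusted p = 0.417, exact p = 0.457), and 0.14 to 0.74 with 1 mouse left out. Hspb2, which is usually found in muscle, had the lowest log2 fold change of the small proteins at -0.39 (unadjusted p = 0.125, exact p = 0.200), and -0.54 without rFGF4 mouse 5, where it passed the unadjusted limit.

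Hspa9 and Hspd1, chaperones of the mitochondrial matrix, were low in mice of both groups. Hspa9 (mortalin), the HSP70 that pulls imported proteins into the matrix, was at 107, 156, 165 and 167 FPKM in the rFGF4 mice and 172, 109, 168 and 105 FPKM in the db/db model mice. Hspd1 (HSP60), the chaperonin ring, was at 89.5, 132, 158 and 137 FPKM in the rFGF4 mice and 130.01, 86.8, 144 and 82.4 FPKM in the db/db model mice. Both genes were lowest in rFGF4 mouse 1 and db/db model mice 3 and 5, a split that does not run along treatment. These are the 3 mice with the lowest proximal tubule marker sums given above, and the part of those cells in the mitochondrial levels was not tested. On the log2 scale rFGF4 minus model was 0.12 ± 0.23 (SE, unadjusted p = 0.616, exact p = 0.943) for Hspa9, turning to -0.0092 after scaling and close to 0 without db/db model mouse 5 (0.0018). For Hspd1 the log2 fold change was 0.23 ± 0.25 (SE, unadjusted p = 0.373, exact p = 0.371), 0.10 after scaling and 0.10 to 0.40 with 1 mouse left out. Hspe1 (HSP10), the lid of the ring, was at 71.7, 91.9, 92.0 and 81.2 FPKM in the rFGF4 mice and 87.9, 92.8, 82.1 and 71.5 FPKM in the db/db model mice. It did not share that pattern, since db/db model mouse 3 was its highest mouse. The log2 fold change was 0.010 ± 0.14 (SE, unadjusted p = 0.942, exact p = 0.971), and the sign turned after scaling (-0.12) and without rFGF4 mouse 2 (-0.034), rFGF4 mouse 3 (-0.034) or db/db model mouse 5 (-0.062).

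A pair of inner membrane J-domain proteins had lower means in the rFGF4 group. Dnajc15 (MCJ), which sits at the import motor and restrains respiratory complex I, was at 4.35, 5.28, 4.74 and 4.98 FPKM in the rFGF4 mice and 5.93, 6.63, 5.68 and 5.59 FPKM in the db/db model mice. Every rFGF4 mouse was below every model mouse in these unscaled values. Its log2 fold change was -0.25 ± 0.11 (SE, unadjusted p = 0.0497, exact p = 0.0286), and it missed the unadjusted limit by limma with any 1 of the 8 mice left out (-0.29 to -0.21). Its paralog Dnajc19, a partner of the same motor, was at 7.43, 8.10, 9.32 and 8.73 FPKM in the rFGF4 mice and 10.9, 9.57, 11.5 and 9.29 FPKM in the db/db model mice, and 3 of the 4 rFGF4 mice were below every model mouse. This gave a log2 fold change of -0.27 ± 0.12 (SE, unadjusted p = 0.0531, exact p = 0.0571), and it passed the unadjusted limit without db/db model mouse 5 or rFGF4 mouse 3 (-0.31 in each). For both genes the difference was larger after scaling (-0.36 and -0.38), but the order of single mice was read in the unscaled values only. Over the 8 mitochondrial members, a list made after the values were seen, 5 were higher and 3 lower and the median was 0.023. After scaling 1 of 8 was higher and the median was -0.094. Of all tested genes 67.1% were higher, and 47.6% after scaling.

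Dnajb14 and Dnajc18 separated the groups by a narrow margin. Dnajb14, a J-domain protein of the ER membrane, was at 1.98, 2.22, 1.97 and 1.98 FPKM in the rFGF4 mice and 1.80, 1.70, 1.84 and 1.92 FPKM in the db/db model mice. The difference was 0.11 ± 0.10 (SE, unadjusted p = 0.307, exact p = 0.0286) on the log2 scale. Dnajc18 was at 6.59, 7.19, 6.85 and 6.45 FPKM in the rFGF4 mice and 6.36, 5.90, 5.55 and 6.07 FPKM in the db/db model mice, and the log2 fold change was 0.16 ± 0.10 (SE, unadjusted p = 0.154, exact p = 0.0286). After scaling the log2 fold changes were 0.027 and 0.046.

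In the main fit, before any alternative was applied, no DNAJC member other than Dnajc15 had an unadjusted p under 0.05. Of the 26, 18 were higher and 8 lower, with a median of 0.094 (67.1% of all tested genes were higher), and after scaling 10 of 26 were higher, against 47.6% of all tested genes. Dnajc5 (cysteine string protein, which guards synaptic vesicle fusion) had the highest value at 0.27 (unadjusted p = 0.185, exact p = 0.229). Dnajc12, a co-chaperone of the aromatic amino acid hydroxylases, had the lowest and widest at -0.53 (unadjusted p = 0.291, exact p = 0.400), from 5.47, 12.9, 14.7 and 30.3 FPKM in the rFGF4 mice and 31.8, 11.8, 23.2 and 18.0 FPKM in the db/db model mice. Its lowest mouse was rFGF4 mouse 1 and its highest db/db model mouse 2, and rFGF4 mouse 5 was close to the model maximum. Dnajc8 and Dnajc17 act in splicing and Dnajc2 on ribosomes, and these were highest in rFGF4 mouse 1.

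The list medians differed between mice of the same group. Median deviations of the 14 HSF1-response members from their mean over all mice were 0.14, 0.49, 0.15 and -0.17 in the rFGF4 mice and -0.26, -0.03, -0.23 and -0.06 in the model mice, on the log2 scale. Those of the 8 ER-lumen members were 0.41, 0.16, 0.08 and -0.17 against -0.15, -0.10, -0.26 and 0.08. rFGF4 mouse 5 was at the model level in both lists. After scaling the HSF1-response medians were -0.20, 0.41, 0.22 and -0.088 in the rFGF4 mice and -0.14, 0.050, -0.085 and -0.18 in the model mice. This leaves rFGF4 mice 2 and 3 above every model mouse and puts rFGF4 mouse 1 lowest of all. The scaled ER-lumen medians were 0.11, 0.091, 0.15 and -0.080 against -0.0048, -0.025, -0.13 and -0.016, with rFGF4 mice 1, 2 and 3 above every model mouse. By the scaled ER-lumen sum only rFGF4 mouse 2 (289 FPKM) was above every model mouse (171 to 283 FPKM). Immediate early genes, which cells switch on within minutes of a stimulus, were also high in rFGF4 mice 1, 2 and 3 and low in rFGF4 mouse 5. Summed over 12 such genes, levels were 304, 305, 282 and 84.3 FPKM in the rFGF4 mice and 72.8, 175, 74.8 and 216 FPKM in the model mice, and db/db model mouse 5 was the highest of its group. All 11 tested were higher in the rFGF4 group (67.1% of all tested genes), also after scaling (47.6%). The median was 0.86, and 1, Dusp1, was higher at an unadjusted p under 0.05 (background 3.56%). The 4 red blood cell genes summed to 120, 1550, 435 and 2648 FPKM in the rFGF4 mice and to 3782, 4308, 2692 and 1136 FPKM in the model mice, with a median log2 fold change of -1.97. They were low in rFGF4 mice 1 and 3, and rFGF4 mouse 5 was near the lower model mice. Transcripts of the mitochondrial genome took 19.0%, 24.7%, 29.8% and 36.0% of the FPKM in the rFGF4 mice and 38.4%, 34.2%, 37.2% and 24.4% in the model mice, so only rFGF4 mouse 1 lay outside the model range. The part of the immediate early genes, the blood genes and the mitochondrial share in the chaperone levels was not tested. rFGF4 mouse 1 was the highest mouse for 30 of 68 members (44.1%), close to its share of all tested genes (48.1%), and rFGF4 mouse 2 for 14 members (20.6%, against 7.32% of all tested genes).

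**Figure D4:**
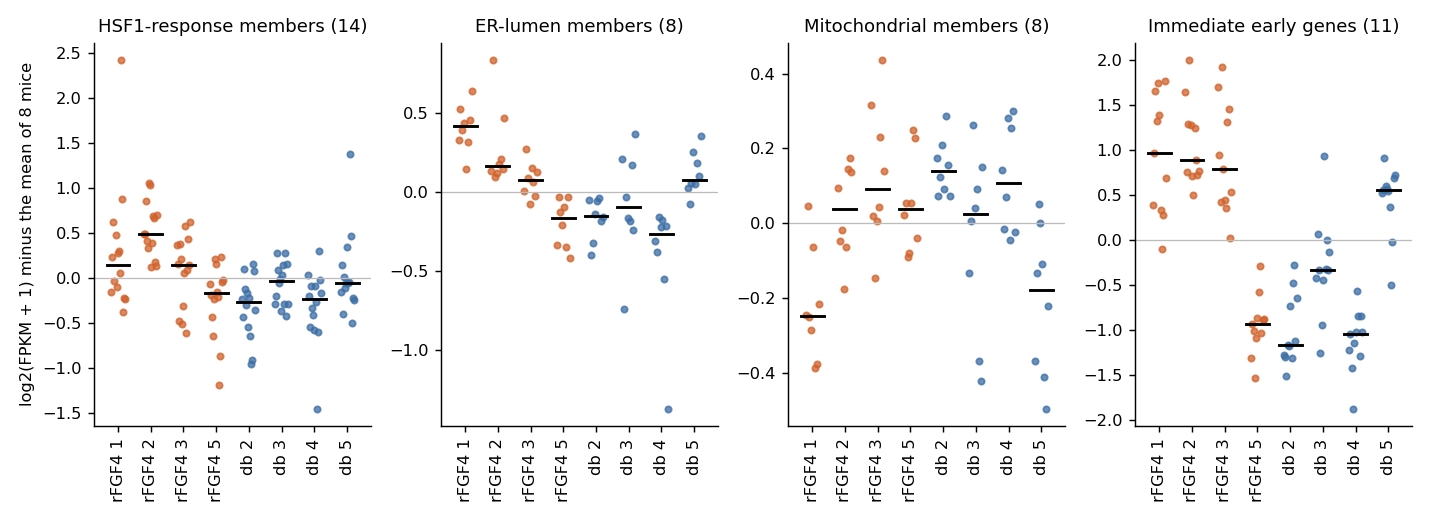
Deviation of each gene from its own mean over the 8 mice, in log2(FPKM + 1), for the tested genes of 4 lists. Points are genes, orange for rFGF4 and blue for db/db model mice, black bars are list medians and the vertical scales differ between panels. The medians of rFGF4 mice 1, 2 and 3 are above every model mouse in the HSF1-response and immediate early lists. After scaling mouse 1 is not in the HSF1-response list. In the ER-lumen list rFGF4 mouse 3 is level with db/db model mouse 5, and above it after scaling. The mitochondrial members are lowest in rFGF4 mouse 1 and db/db model mouse 5.

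The proteins that work with these chaperones were read from a list of 32 partners, all tested. Of these 27 were higher and 5 lower, against 67.1% higher of all tested genes, and after scaling 21 of 32 were higher, against 47.6%. The median was 0.17 and after scaling 0.048, and 3 were higher at an unadjusted p under 0.05 (background 3.56%), with none at an adjusted p under 0.05. Fkbp5, an HSP90 co-chaperone of the glucocorticoid receptor and one of its best known targets, was at 22.8, 33.3, 47.7 and 18.8 FPKM in the rFGF4 mice and 13.2, 17.1, 13.1 and 12.7 FPKM in the db/db model mice. In these unscaled values every rFGF4 mouse was above every model mouse, as in 2.66% of all tested genes. In log2 terms the change was 0.995 ± 0.27 (SE, unadjusted p = 0.00599, exact p = 0.0286), and 0.87 after scaling. Hyou1, the HSP110 of the ER, was at 10.3, 10.3, 9.39 and 5.87 FPKM in the rFGF4 mice and 5.94, 5.50, 5.12 and 6.01 FPKM in the db/db model mice, where rFGF4 mice 1, 2 and 3 were high and rFGF4 mouse 5 was level with the model. On the log2 scale rFGF4 minus model was 0.56 ± 0.18 (SE, unadjusted p = 0.0127, exact p = 0.0857). Cct6a, a subunit of the cytosolic chaperonin that folds actin and tubulin, was at 38.8, 36.0, 36.5 and 32.4 FPKM in the rFGF4 mice and 30.3, 26.9, 29.4 and 29.5 FPKM in the db/db model mice. The groups did not overlap in these unscaled values (background 2.66%). The log2 fold change was 0.30 ± 0.10 (SE, unadjusted p = 0.0191, exact p = 0.0286), and 0.17 after scaling. Among 11 targets of ER stress signalling, all were higher (67.1% of all tested genes), with a median of 0.28. After scaling 8 of 11 were higher (47.6% of all tested genes), with a median of 0.16, and Sdf2l1 (-0.091), Creld2 (-0.023) and Calr (-0.0058) were lower. In the unscaled values Hyou1 alone had an unadjusted p under 0.05 (background 3.56% higher). Xbp1, which encodes a factor that drives Dnajb9, was at 27.3, 27.9, 23.3 and 9.29 FPKM in the rFGF4 mice and 8.50, 11.6, 9.21 and 23.9 FPKM in the db/db model mice. Its log2 fold change was 0.69 ± 0.41 (SE, unadjusted p = 0.133, exact p = 0.229). These are levels of the whole gene, and the active XBP1 protein was not measured.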

How the data were processed

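Kidney RNA of 8 mice was measured, 4 per group by the labels, 1 library per mouse. The deposited FPKM values were made by the authors with StringTie from reads assembled per library and merged with Gffcompare. The submitters' processing notes also name HISAT2 2.0, Bowtie 0.12.2, StringTie 1.3.0 and the build mm8, without roles, and how transcripts were combined per gene is not given in the sources used here. The table also holds the authors' edgeR comparison, deposited as a fold change, its log2, a p-value and a q-value, none of which was used. A value of 0.0001 was read as 0. Counts were not analysed here, so edgeR could not be applied and the depth behind a value is unknown, and no label gives a batch.

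Here log2(FPKM + 1) was fitted with limma 3.58.1 (R 4.3.3, two-sided, trended prior) on all 15150 genes with FPKM of at least 0.5 in at least 4 libraries. Benjamini-Hochberg adjustment ran over all of them, and p-values in the report are unadjusted unless named otherwise. Single members were also tested by an exact permutation test over the 70 splits of 4 against 4. The fit was tested on simulated data. Named with every value were members at p under 0.05, members whose groups did not overlap, a fixed panel standing for the families, and a few others given for their range. Dnajc19, Dnajc12 and the partner genes printed with values were added after their values were seen. The members and lists were chosen with earlier results of these data known. Shared 50-base stretches were counted in GENCODE M21 transcripts, which hold all 74 members, and promoters were matched by symbol. Alternatives were another pseudocount, other filters, median-ratio scaling, array weights, a mouse number block and each library left out, and, added after the data were seen, rFGF4 mouse 1 and db/db model mouse 5 left out together.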

Additional observations from a re-analysis of the deposited data

Results flagged for a closer look

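In 4 of the 136 sets of 4 mice examined (68 members in each group), 1 mouse stood far from the others of its group, where chance would give about 7. The gap to the nearest mouse, as a share of the group's whole range, was 0.949 for Dnajb14 in rFGF4 mouse 2 (2.22 FPKM against 1.97 to 1.98 FPKM), although the distance itself is small. For Dnajc3, the ER inhibitor of PERK, it was 0.879 in rFGF4 mouse 5, which had 18.9 FPKM against 22.5 to 23.0 FPKM in the other rFGF4 mice. For Hspa9, the mitochondrial HSP70, it was 0.837 in rFGF4 mouse 1, with 107 FPKM against 156 to 167 FPKM. For Hspa1l, a testis HSP70 that shares most of its sequence with other genes, it was 0.844 in db/db model mouse 2, with 0.510 FPKM against 1.17 to 1.32 FPKM.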

How the results depend on the processing

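Adjusted p-values under 0.05 were reached by 0 members under every alternative run. With 1 mouse left out in turn, 1 to 2 members passed p and the 1.5-fold limit, 1 to 5 were higher and 0 to 1 lower at an unadjusted p under 0.05. Array weights, which gave rFGF4 mouse 1 (0.271) and db/db model mouse 5 (0.410) the least weight, gave 4 past both limits, 11 higher and 3 lower, with 1817 of all genes at an unadjusted p under 0.05 against 700. Leaving both mice out gave 2 past both limits and 0 lower. Scaling gave 1 higher, Dnajb9, and 2 lower, Dnajc15 and Dnajc9 (log2 fold change of Dnajc9 -0.25, unadjusted p = 0.0329 by limma). It also moved the members' median to -0.00075. Without a filter 2 were lower, and with FPKM of at least 1 in all 8 libraries 0, since Dnajc15 narrowly missed the limit at the same log2 fold change (-0.25).

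Signs turned after scaling for 19 of the 68 members, among those described one by one for Dnajb11 (-0.062), Hsp90aa1 (-0.071), Hsp90b1 (-0.0100), Hspa9 (-0.0092) and Hspe1 (-0.12), and for Dnajb11 with both mice out (-0.015). With 1 mouse left out the log2 fold change ran from -0.035 to 0.19 for Dnajb11, -0.073 to 0.28 for Hsp90aa1, -0.044 to 0.25 for Hsp90b1, 0.018 to 0.61 for Hspa5, 0.025 to 0.55 for Hspa1a, -0.042 to 1.22 for Hspb1 and -0.062 to 0.084 for Hspe1. The cause was not tested. The medians ran from 0.094 to 0.16 for all members, 0.22 to 0.47 for the HSF1 list and 0.12 to 0.28 for the ER list.

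Mice with the same number did not deviate together (correlations of -0.229, -0.155 and -0.393 for numbers 2, 3 and 5), so the numbers were not treated as pairs. With the mouse number as a replicate block, which rests on those 3 numbers, 1 member was higher at the unadjusted limit by limma (Hsph1) and 0 lower, Dnajb9 narrowly missed the limit with a log2 fold change of 0.76, and the sign turned for Dnajb11 (-0.13), Hsp90b1 (-0.13), Hspa5 (-0.13) and Hspb1 (-0.42).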

Other observations

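Hspb2 and Cryab, neighbouring genes for small heat shock proteins that share 24.4% of the 50-base stretches of Hspb2, were both lower in the rFGF4 group. Cryab, the alpha-B crystallin of lens, muscle and kidney medulla, was at 43.9, 44.9, 26.4 and 54.8 FPKM in the rFGF4 mice and 60.3, 66.1, 71.3 and 43.3 FPKM in the db/db model mice, and the groups overlapped through db/db model mouse 5. Its log2 fold change was -0.52 ± 0.24 (SE, unadjusted p = 0.0666 by limma, exact permutation p = 0.114), beside -0.39 for Hspb2.

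Serpinh1 (HSP47), the collagen chaperone of the ER, was at 76.1 FPKM in rFGF4 mouse 1 and at 10.9 to 29.6 FPKM in the other mice, with a log2 fold change of 0.79 (unadjusted p = 0.115 by limma, exact permutation p = 0.200).

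Among the remaining marker lists, smooth muscle markers summed to 33.1 to 60.9 FPKM in the rFGF4 mice and 27.2 to 113 FPKM in the model mice, liver markers to 35.8 to 112 and 21.3 to 72.9 FPKM, and brown fat markers to at most 0.227 and 0.193 FPKM.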
